A study of Homo sapiens with 6 samples.

Results

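The GADD45 family comprises GADD45A, GADD45B and GADD45G, small acidic proteins made when cells meet DNA damage, cytokines or other stress. They were examined in HEK293 cells, an established human embryonic kidney line, either without treatment or after 30 or 60 min in 50 mM sodium salicylate. All probes that the platform annotation names for these 3 genes were used, which gave 4 of the 47323 probes on the Illumina bead array: 2 for GADD45A (ILMN_1694075 and ILMN_2052208), 1 for GADD45B (ILMN_1718977) and 1 for GADD45G (ILMN_1651498). Each of the 3 groups had 2 arrays of bulk total RNA, 6 arrays in all, but no label states that a group's arrays came from separate cultures, so the spread between them may be technical. No mock-treated sample or other sodium salt was labelled, so handling, time and the sodium load cannot be told apart from salicylate. The genes were chosen on their differences from control at 30 min on these same arrays, where GADD45G and GADD45B stood out, and GADD45A came with them as the remaining family member. Their values are therefore given as a description, with no test.

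GADD45 proteins have no known enzyme activity of their own and act by binding others. They switch on the kinase MAP3K4, which feeds the p38 and JNK stress kinases. They also bind PCNA, the cyclin-dependent kinase inhibitor CDKN1A and the mitotic kinase CDK1, and they have been tied to DNA repair and to active DNA demethylation with the glycosylase TDG and the TET enzymes. Their mRNAs are short-lived, and each gene answers to its own set of signals: GADD45A is best known for DNA damage, GADD45B for NF-kappaB and TGF-beta signals, and GADD45G for cytokines.

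The promoters of GADD45B and GADD45G are shown, as the promoter set used held no entry for GADD45A. They come from RefSeq on GRCh38.p14 and run from 250 bases before to 50 bases after the annotated start, 5′ to 3′ on the plus strand. Capitals mark the TATA box letters TATAAA, the CCAAT box letters CCAAT and the E-box letters CACGTG, searched on both strands.
GADD45B, chr19:2475877-2476176, plus strand: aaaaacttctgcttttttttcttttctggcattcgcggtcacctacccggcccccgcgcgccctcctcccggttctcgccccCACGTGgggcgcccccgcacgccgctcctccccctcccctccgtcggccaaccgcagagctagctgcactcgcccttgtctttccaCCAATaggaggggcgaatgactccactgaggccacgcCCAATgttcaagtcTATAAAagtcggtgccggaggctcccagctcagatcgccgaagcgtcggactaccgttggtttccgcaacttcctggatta
GADD45G, chr9:89604762-89605061, plus strand: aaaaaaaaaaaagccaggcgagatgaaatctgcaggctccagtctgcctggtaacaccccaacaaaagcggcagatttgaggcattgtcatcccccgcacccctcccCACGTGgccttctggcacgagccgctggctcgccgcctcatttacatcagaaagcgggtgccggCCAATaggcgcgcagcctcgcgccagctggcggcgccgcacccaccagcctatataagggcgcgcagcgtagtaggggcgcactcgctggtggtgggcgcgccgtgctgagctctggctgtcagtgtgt
Both held an E-box, at -168 to -163 in GADD45B and at -143 to -138 in GADD45G. Both also held a CCAAT box at nearly the same place, at -82 to -78 and at -79 to -75, and GADD45B had another at -45 to -41. Only the GADD45B window of this pair held TATAAA, at -31 to -26. The GADD45G window held tatataag, whose end differs from TATAAA only in its last letter and which a search for exact letters leaves unmarked. No difference between the 2 genes in having a TATA box is read from this. Among all 35116 RefSeq promoters of this length, 7.26% held CACGTG, 34.6% held CCAAT, 2.33% held both and 11.5% held TATAAA. The NF-kappaB motif, found in 11.3% of all promoters, matched the GADD45B window at -163 to -154, overlapping the E-box by its first base, and on the minus strand at -15 to -6. It had no match in the GADD45G window. Neither window held the GC box letters GGGCGG (45% of promoters), the CRE letters TGACGTCA (1.85%), the AP-1 letters TGANTCA (7.71%) or the octamer ATTTGCAT (1.77%). These matches describe letters only.

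Every array detected all 4 GADD45 probes at a detection p-value under 0.05. Over the whole series, 20726 to 21740 probes per array passed that level, and the median intensity lay between 143.1 and 147.6. Of 10 markers of the HEK293 line, 9 were detected on all 6 arrays, among them the keratins KRT8 and KRT18, vimentin and the neurofilament NEFM; PAX2 was not detected. No endothelial marker of 4 was detected, while 2 of 5 fibroblast, 1 of 4 hepatocyte and 2 of 4 measured leukocyte markers (CD14 and CD68) were detected on all arrays. The summed normalized intensity of the detected HEK293 markers ran from 31049 to 32763 in the controls, from 31287 to 32284 at 30 min and from 34433 to 35555 at 60 min. In the same order of groups, that of the leukocyte markers ran from 757.3 to 830.8, from 819.9 to 912.5 and from 702.9 to 759.0. The fibroblast sum ran from 333.0 to 358.7, from 327.6 to 343.8 and from 409.5 to 413.0, and the hepatocyte sum from 179.5 to 185.6, from 186.2 to 197.9 and from 209.1 to 241.8. The HEK293, fibroblast and hepatocyte sums at 60 min lay above all earlier arrays. The part of these lists in the results was not tested. Levels below are log2 values of intensity after background correction and quantile normalization, and differences between groups are in the same log2 units, with the standard error of a limma fit over all detected probes (SE, n = 2 arrays per group). Levels of different probes are not comparable with each other.

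GADD45G, the family member known as a cytokine response gene, was far higher after 30 min and still high at 60 min. Its deposited intensity was 281.6 and 285.7 in the controls, 554.7 and 526.7 at 30 min, and 392.9 and 425.1 at 60 min. The normalized levels were 7.58 and 7.30, then 8.76 and 8.67, then 8.25 and 8.38. No pair of groups overlapped, and the order was control, 60 min, 30 min. At 30 min GADD45G lay 1.28 ± 0.12 above control, or 2.42-fold, and at 60 min it lay 0.88 ± 0.12 above control, or 1.84-fold. Between the treated groups the level at 60 min was 0.40 ± 0.12 below that at 30 min, so 68.7% of the log2 difference seen at 30 min was left. The gap between these neighbours in the order was wider than the distance between the arrays of either, which was 0.09 at 30 min and 0.13 at 60 min. The controls were the most scattered, 0.28 apart. Without background correction the differences from control were 0.91 and 0.60.

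GADD45B, also known as MYD118, was high at 30 min and back near the control level at 60 min. Its deposited intensity was 576.2 and 693.6 in the controls, 1172.3 and 1071.6 at 30 min, and 571.9 and 551.6 at 60 min. After normalization the controls both read 9.002, the 30 min arrays 10.01 and 9.87, and the 60 min arrays 8.97 and 8.87. Only the 30 min arrays stood clearly apart. They lay 0.94 ± 0.08 above control, or 1.91-fold. The 60 min arrays differed from the controls by -0.08 ± 0.08, no more than the SE, although the groups did not overlap. From 30 to 60 min the difference was -1.02 ± 0.08, so that the mean at 30 min was 2.02-fold that at 60 min. In bulk RNA a response of fewer cells and less RNA per cell cannot be told apart, and neither can new synthesis and slower decay.

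GADD45A, the founding member of the family and the one best known for DNA damage, differed little from control on either probe. The probe that stands for the gene in the fit across genes, ILMN_1694075, read 9.86 and 10.01 in the controls, 9.98 and 9.96 at 30 min, and 9.98 and 9.92 at 60 min. All 3 groups overlapped on it, and its differences from control were 0.03 ± 0.08 at 30 min and 0.01 ± 0.08 at 60 min. The other probe, ILMN_2052208, read 9.74 and 9.67, then 9.89 and 9.93, then 9.76 and 9.74. On that probe the 30 min arrays lay above the rest by a small step, 0.20 ± 0.07 over control, or 1.15-fold, and the 60 min arrays were 0.16 ± 0.07 lower than the 30 min arrays and 0.05 ± 0.07 above control. The probes of GADD45A thus gave different sizes at 30 min, and the value for the gene depends on which is read.

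**Figure D1:**
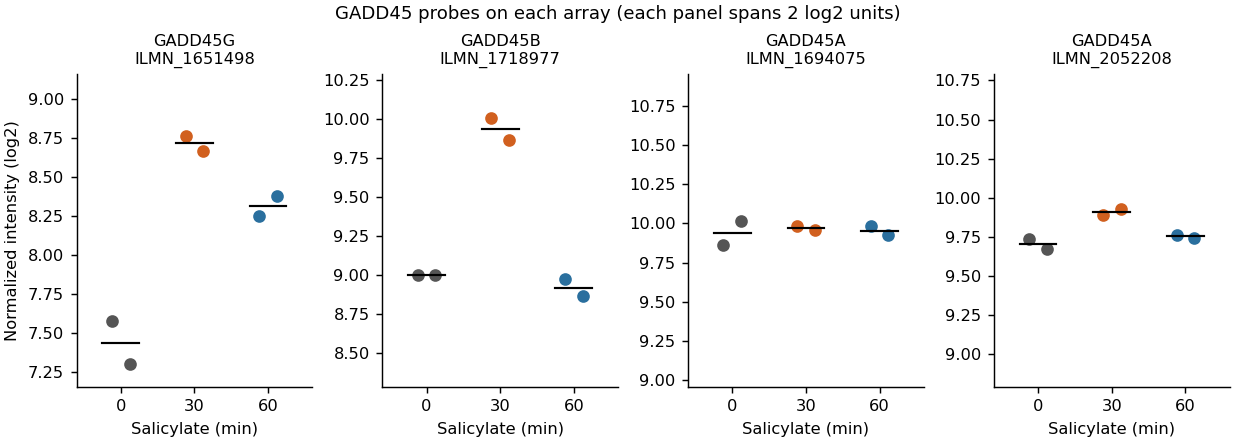
Normalized intensity (log2) of each GADD45 probe on each array, by minutes of salicylate; points are arrays, bars are group means, and every panel spans 2 log2 units on its own scale. GADD45G stays above its controls at 60 min (0.88), GADD45B is back at its control level (-0.08), and the GADD45A probes differ from control by 0.03 and 0.20 at 30 min.

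Against the whole array, GADD45G and GADD45B lay at the far end of the distribution at 30 min and parted by 60 min. Of the 12547 genes tested, GADD45G had rank 7 from the highest difference at 30 min and GADD45B rank 12, whereas GADD45A had rank 4877. At 60 min against control GADD45G had rank 43 from the highest and GADD45B rank 4738 from the lowest. From 30 to 60 min GADD45B had rank 7 from the lowest, and GADD45G rank 726. At 30 min 2 of the 3 genes had both arrays above both controls, as did 21.4% of all genes tested, and 44.6% did not overlap in either direction. At 60 min 1 lay above its controls (GADD45G) and 1 below (GADD45B), against 28.9% above, 31.6% below and 60.5% either way over all genes. Between the treated groups 2 of 3 were lower at 60 min, against 31.2% lower and 60.3% either way. GADD45A was counted on ILMN_1694075, whereas on ILMN_2052208 its groups did not overlap in any comparison, so the counts depend on the probe. Since the genes were chosen on these arrays, nothing is read from these counts. The comparisons with control share the control arrays, and those with 30 min share the 30 min arrays, so the values stand side by side and are not independent.

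**Figure D2:**
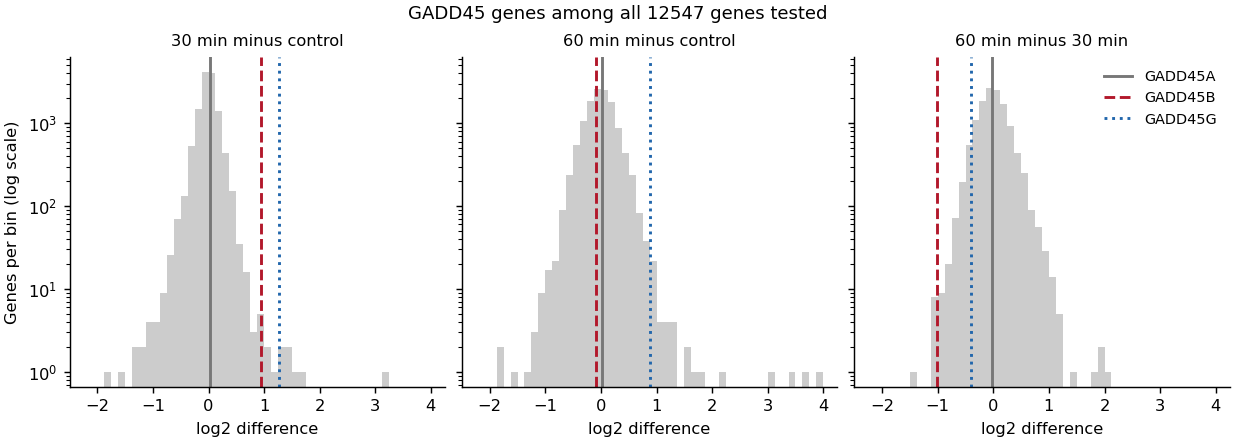
Histograms of the log2 difference of all 12547 genes in each comparison, with the number of genes per bin on a log scale; lines mark the 3 GADD45 genes. At 30 min GADD45G (1.28) and GADD45B (0.94) lie in the upper tail, and from 30 to 60 min GADD45B (-1.02) lies in the lower tail.

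The genes most like each member were taken as those with the smallest root mean square difference of log2 values, relative to the control mean, over the 6 arrays. The profile nearest to GADD45B was that of ACTA1, the actin of skeletal muscle, with a root mean square difference of 0.17. ACTA1 was 0.68 above control at 30 min and 0.01 at 60 min. Next came SDR16C5 (0.18), GOLGA7B (0.20), HUS1B (0.21), a relative of a DNA damage checkpoint clamp subunit, and ZNF563 (0.24). A group counted as above background if at least 1 of its arrays had a detection p-value under 0.05 on any probe of the gene. By that rule SDR16C5 was above background in 1 of the 3 groups and ZNF563 in 2, so their profiles rest in part on values not above background. The 3 that were above background in every group differed from control by 0.68 (ACTA1), 0.66 (GOLGA7B) and 0.75 (HUS1B) at 30 min, and by 0.01, -0.17 and 0.22 at 60 min.

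The profiles nearest to GADD45G were those of short structural RNAs and 2 protein-coding genes. RNU11, a small nuclear RNA that recognises minor introns, was nearest at 0.20, followed by SNORD99 (0.25), the Ras-like gene RASD1 (0.25), HINT3 (0.28) and RPPH1 (0.35), the RNA of RNase P. RASD1, known as a gene induced by glucocorticoids, lay 0.91 above control at 30 min and 0.96 at 60 min. Between 30 and 60 min the lowest difference among these 5 was -0.07, for RNU11, against -0.40 for GADD45G. HINT3 read 1.31 at 30 min on the probe used and 0.04 on its other detected probe, and RNU11 read 1.04 and 0.58. For GADD45A the nearest were MPLKIP, COPS5, a subunit of the COP9 signalosome, CD81, METTL23 and DYNC1LI2, all within 0.02 of it and all flat, with differences from control between -0.01 and 0.05. The other probe of MPLKIP read 0.25 at 30 min. Among themselves the members were not close: GADD45G was 0.60 from GADD45B and 0.88 from GADD45A, and GADD45B was 0.53 from GADD45A.

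**Figure D3:**
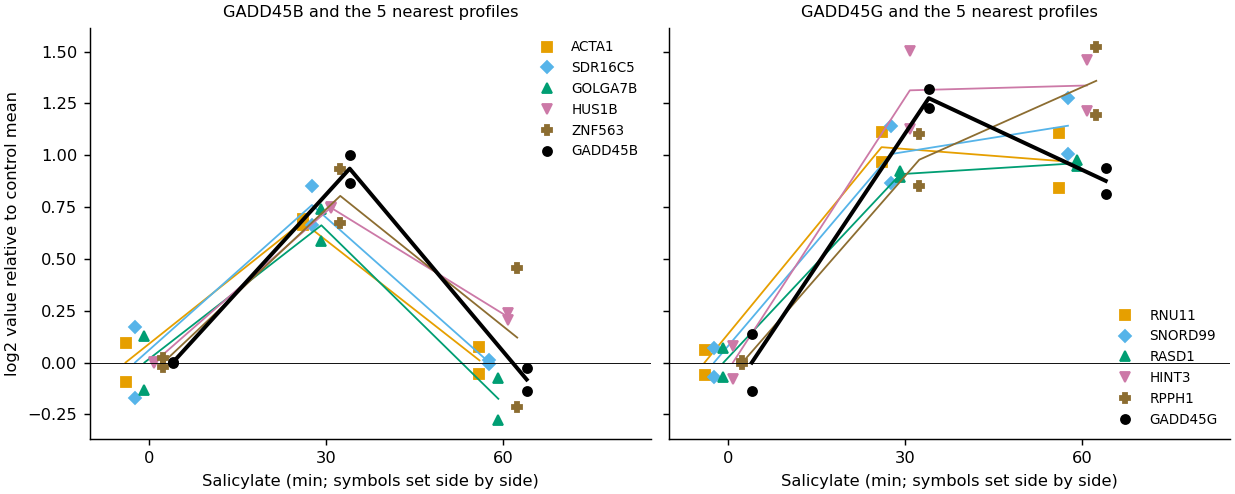
Log2 value relative to the control mean (y axis) by minutes of salicylate (x axis, symbols set side by side) for GADD45B, GADD45G and the 5 genes nearest to each; symbols are arrays and lines join group means. The GADD45B set is back between -0.17 and 0.22 at 60 min, while the GADD45G set stays between 0.88 and 1.36.

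The partners and regulators of the family were then read from 5 lists of 103 genes in all, of which 93 were tested across the whole table by limma with Benjamini-Hochberg adjustment over 12547 genes. At 30 min 0 of the 93 passed an adjusted p of 0.05, against 0.327% of all genes, so nothing is read from that count. At an unadjusted p under 0.05 there were 17, or 18.3%, against 11.2% of all genes. TOB1 passed, as lower, when either 60 min array was left out. At 60 min 37 of the 93 passed, 8 higher and 29 lower, or 39.8% against 22.9% of all genes. The median of the 93 was 0.01 at 30 min and -0.08 at 60 min, and that of all genes was -0.0042 and -0.0082. The count at 60 min fell to 23 when the first control array was left out and to 16 when the second was. With median scaling it was 28, of which 3 were higher and 25 lower. Between 30 and 60 min 27 passed, 8 higher and 19 lower, or 29%, against 22.7% of all genes (17 without 30 min replicate 2).

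Of 13 kinases of the GADD45 signal tested, 1 rose and 2 fell at 60 min. That is 23.1%, near the 22.9% of all genes, and the median was 0.03; the total was 1 without control replicate 2 and 5 without 60 min replicate 1. MAP3K4, the kinase that GADD45 proteins bind and activate, read 10.79 and 10.80 in the controls, 10.89 and 10.82 at 30 min, and 10.85 and 10.80 at 60 min, a difference of 0.06 ± 0.06 at 30 min and 0.03 ± 0.06 at 60 min. MAPKAPK3, a kinase that p38 activates, rose by 0.35 ± 0.05 (limma adjusted p = 0.00093). MAP2K4, which phosphorylates JNK and p38, fell by 0.27 ± 0.06 (limma adjusted p = 0.0053), which did not pass when the second control array was omitted (adjusted p = 0.056). MAP2K3, upstream of p38, differed by -0.19 ± 0.06, and that call was lost in 7 of 11 other settings. MAPK8, which is JNK1, did not pass against control (-0.29 ± 0.11) but passed between 30 and 60 min (-0.36), a call lost in 7 of 11 settings and turned to 0.13 on its other probe.

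Of 12 cell cycle partners, 2 rose and 0 fell at 60 min, CDKN1A and PLK1. That is 16.7%, against 22.9% of all genes (10.5% higher and 12.3% lower), and the median was 0.14. CDKN1A, an inhibitor of cyclin-dependent kinases, read 12.86 and 12.88 in the controls, 12.77 and 12.79 at 30 min, and 13.32 and 13.25 at 60 min. Both 60 min arrays lay above all others, and both 30 min arrays lay below the controls. CDKN1A rose by 0.42 ± 0.05 at 60 min (limma adjusted p = 0.00039) and by 0.50 ± 0.05 between 30 and 60 min (limma adjusted p = 0.00017), calls kept in all 11 settings. The mitotic kinase PLK1 rose by 0.27 ± 0.07, a call lost without either control array, without 60 min replicate 2 and with median scaling (highest adjusted p 0.40). PCNA, the sliding clamp of DNA replication, differed by 0.17 ± 0.09 at 30 min and 0.04 ± 0.09 at 60 min, and its other probe by 0.25 and -0.23. CDK1 differed by 0.01 ± 0.06 and 0.09 ± 0.06. GADD45GIP1, a mitochondrial ribosome protein that was named for binding GADD45 proteins, differed by 0.30 ± 0.14 and 0.13 ± 0.14. CCNB2, a mitotic cyclin, rose by 0.16 between 30 and 60 min, a call lost in 9 of 11 settings.

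Genes of DNA demethylation and repair changed in both directions at 60 min. Of 17 tested, 4 rose and 6 fell, or 58.8%, with a median of -0.0037; over all genes 22.9% passed, 10.5% higher and 12.3% lower. The count of 10 became 5 with median scaling, 6 without control replicate 1, 2 without control replicate 2 and 6 without 60 min replicate 2. TDG, the glycosylase that removes oxidised methylcytosine, read 13.09 and 13.16 in the controls, 13.10 and 13.10 at 30 min, and 12.86 and 12.80 at 60 min. It fell by 0.30 ± 0.05 (limma adjusted p = 0.0025), a call kept in all 11 settings, and its other probe differed by -0.18. TET1, which oxidises methylcytosine, differed from control by -0.16 ± 0.09 at 30 min and 0.17 ± 0.09 at 60 min. It passed only between the treated groups (0.33, limma adjusted p = 0.023), a call lost in 4 of 11 settings. Its other detected probes differed between the treated groups by -0.007 and 0.13, and from control at 60 min by -0.19 and 0.23. The nucleotide excision repair genes ERCC2 and ERCC1 rose by 0.56 ± 0.11 and 0.33 ± 0.06. Omitting the second control array ended the first call (adjusted p = 0.057), and median scaling ended the second (adjusted p = 0.15). TAF12, a subunit of TFIID that was linked to GADD45A in demethylation, rose by 0.37 ± 0.09, and ING1, a histone mark reader linked to the same step, fell by 0.42 ± 0.13. The glycosylase NEIL1 rose by 0.43 ± 0.13. The rest of those that fell were XRCC1 by 0.29 ± 0.07, the glycosylase MBD4 by 0.28 ± 0.07 and DNMT1 by 0.22 ± 0.05. ERCC3, a further nucleotide excision repair gene, fell by 0.18 ± 0.06, so genes of that pathway passed in both directions. For these fallers the other settings were not followed gene by gene. The calls of TAF12, ING1 and NEIL1 were lost in 4, 3 and 8 of 11 settings, with highest adjusted p of 0.20, 0.28 and 0.23.

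Among transcription factors known to act on GADD45 promoters, the calls at 60 min on the probes used were all downward. Of 33 tested, 0 rose and 15 fell, or 45.5%, with a median of -0.25; over all genes 10.5% rose and 12.3% fell. The count was 9 when either control array or 60 min replicate 2 was left out, and reading each gene from its most variable probe gave 17, of which 2 were higher and 15 lower. MYC, which binds E-boxes and represses GADD45A, read 12.10 and 12.14 in the controls, 12.17 and 12.10 at 30 min, and 11.60 and 11.57 at 60 min, and fell by 0.53 ± 0.06 (limma adjusted p = 0.00014). NFYA and NFYB, subunits of the factor that binds CCAAT boxes, fell by 0.48 ± 0.08 (limma adjusted p = 0.0016) and 0.49 ± 0.12 (limma adjusted p = 0.012). NFYC, the remaining subunit of that factor, did not pass and differed by -0.00013 ± 0.06. NFKB1, a subunit of NF-kappaB, fell by 0.47 ± 0.07 (limma adjusted p = 0.0011), whereas RELA, its usual partner, differed by -0.04 ± 0.13. FOXO1, a forkhead factor, fell by 0.50 ± 0.09 (limma adjusted p = 0.0026). The calls of MYC, NFYA, NFKB1 and FOXO1 against control were kept in all 11 settings, and a further MYC probe differed by -0.62. That of NFYB was lost without either control array and with no filter on dim probes (highest adjusted p 0.086).

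The 4 FOS and JUN family genes on the list, FOS, JUN, JUNB and JUND, all passed as lower at 60 min, as did 12.3% of all genes. They were grouped after the values of JUN and JUND were seen. ATF2 (-0.02 ± 0.08 at 60 min) and the stress factors ATF3, ATF4 and DDIT3 did not pass against control on the probes used. FOS read 7.11 and 7.39 in the controls, 7.48 and 7.80 at 30 min, and 6.76 and 6.56 at 60 min. Its difference was 0.39 ± 0.15 at 30 min, which did not pass, and it fell by 0.59 ± 0.15 at 60 min against control and by 0.98 ± 0.15 between 30 and 60 min (limma adjusted p = 0.017 and 0.0015). The first of these ended when the second control or second 60 min array was omitted and with no filter on dim probes (highest adjusted p 0.16). JUND, named with JUN after their values were seen, fell by 0.42 ± 0.05 (limma adjusted p = 0.00033), a call kept in all 11 settings. JUN fell by 0.33 ± 0.10, a call that ended on omitting any 1 of the control arrays or the second 60 min array (highest adjusted p 0.20). JUNB fell by 0.59 ± 0.18, and EGR1, a zinc finger early response factor, by 0.31 ± 0.09, and each call was lost in 5 of 11 settings. ATF4, the factor of the integrated stress response, differed by 0.09 ± 0.07 and -0.03 ± 0.07, but of its other detected probes 1 read 0.45 and 0.73 (at 60 min limma adjusted p = 0.0059 with that probe) and 1 read 0.09 and -0.05. DDIT3, its target known as CHOP or GADD153, differed by 0.25 ± 0.09 at 30 min and 0.12 ± 0.09 at 60 min. ATF3 differed by 0.15 ± 0.07 and -0.13 ± 0.07 and fell between 30 and 60 min by 0.28 (limma adjusted p = 0.012), a call lost without 30 min replicate 1 and without 60 min replicate 2 (highest adjusted p 0.10).

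Of 21 other growth arrest and damage-inducible genes tested, 2 rose and 6 fell at 60 min, or 38.1% against 22.9% of all genes, with a median of -0.11. At 30 min 0 passed, where 0.327% of all genes did, so nothing is read from that count; the median was 0.05 and 6 had an unadjusted p under 0.05 by limma. At 60 min 4 passed when the second control array was omitted. PPP1R15A, known as GADD34, which directs dephosphorylation of the translation factor eIF2-alpha, read 10.98 and 10.93 in the controls, 11.04 and 10.97 at 30 min, and 10.58 and 10.62 at 60 min. It fell by 0.36 ± 0.06 at 60 min (limma adjusted p = 0.0020). TOB1, an antiproliferative factor that promotes mRNA deadenylation, fell by 0.72 ± 0.07 (limma adjusted p = 0.00011), and IER5 by 0.39 ± 0.06 (limma adjusted p = 0.0013). These 3 calls were kept in all 11 settings. PPM1D, a phosphatase that switches off damage signalling, fell by 0.36 ± 0.10, a call that ended on omitting the second control array or the first 60 min array (highest adjusted p 0.19). ZFP36, which destabilises AU-rich mRNAs, read 7.96 and 8.36 in the controls, 8.45 and 8.58 at 30 min, and 8.09 and 7.84 at 60 min. It did not pass against control at either time (0.35 ± 0.14 and -0.20 ± 0.14) and fell by 0.55 ± 0.14 between 30 and 60 min (limma adjusted p = 0.014), a call lost without 30 min replicate 2 and without 60 min replicate 2 (highest adjusted p 0.10).

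**Figure D4:**
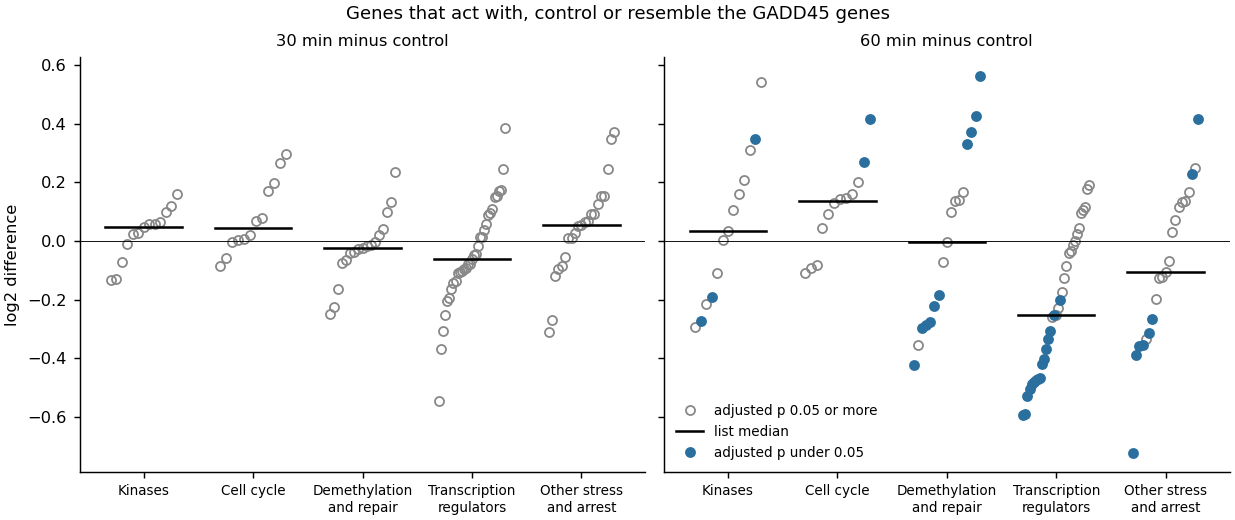
Log2 difference from control at 30 and 60 min of the tested genes in the 5 lists, each point a gene placed by rank within its list; filled points have a limma adjusted p under 0.05 and bars are list medians. No gene is filled at 30 min, when 0.327% of all genes passed. At 60 min 15 of 33 transcription factors are filled, all below 0, and 12.3% of all genes passed as lower.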

How the data were processed

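Total RNA of HEK293 cells was amplified to biotinylated cRNA and hybridised to Illumina bead arrays, per the labels' protocols. The authors deposited linear intensity values, not normalized, with a detection p-value beside each, and a table of log2 values that differed by at most 5e-07 from quantile-normalized log2 intensities without background correction. The submitters' processing notes list GenomeStudio 2011.1 and R 2.15.3. Here intensities were corrected with neqc (offset 16), which infers negative controls from the detection p-values, then quantile normalized. Probes detected (p under 0.05) on 2 or more arrays were kept (22377), each gene being read from its brightest probe (12547 genes). GADD45 probes were read singly. limma 3.58.1 in R 4.3.3 fitted a mean per group over all 6 arrays (3 residual degrees of freedom, prior 8.91), with Benjamini-Hochberg adjustment over all genes, and was tested on simulated data. Of all probes, 30113 had 1 gene symbol, 8 several, and 17202 were not named here. Symbols were updated through RefSeq gene identifiers.

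The members, the lists and the tests were chosen with earlier results of these data known. Genes were named by rule: all members, fixed partners, up to 5 genes per list and comparison with the largest difference past the threshold, and the 5 nearest profiles per member. The alternatives were no background correction (as in the authors' table), median scaling, no filter, the replicate number as a block, another probe and leaving out each array. Precision is set by having 2 arrays per group. Some list genes are given outside the naming rule, to complete a list or complex.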

Additional observations from a re-analysis of the deposited data

Results flagged for a closer look

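GADD45B is listed because both 30 min arrays lay above the controls and both 60 min arrays below them. Taken singly, the first held for 21.4% of all genes tested and the second for 31.6%. The 60 min difference from control was -0.08 ± 0.08, no more than the SE, and the controls lay only 0.00085 apart. No reversal of direction is therefore read from it. The 60 minus 30 min difference was -1.02. This difference between the times was not tested, since the gene was chosen on these arrays.

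In other genes the effect at 60 min differed from that at 30 min by the limma contrast between the treated groups (adjusted p under 0.05). Transcription factors were lower at 60 than at 30 min: FOS by -0.98, MYC by -0.55, JUND by -0.31, FOXO1 by -0.41, NFYA by -0.41, NFKB1 by -0.39 and ATF3 by -0.28. Among the growth arrest and early response genes ZFP36 differed by -0.55, PPM1D by -0.48, TOB1 by -0.45, PPP1R15A by -0.41 and IER5 by -0.34. Lower kinases were MAPK8 at -0.36 and MAP2K4 at -0.30, while MAPKAPK3 was higher at 0.23. In demethylation and repair ING1 differed by -0.52 and TDG by -0.27, against 0.57 for ERCC2, 0.35 for TAF12, 0.35 for ERCC1 and 0.33 for TET1. CDKN1A was higher by 0.50 and CCNB2 by 0.16. Some of these calls were lost under other settings. That of CCNB2 was lost in 9 of 11 settings, and that of MAPK8 in 7, with its sign turned on its other probe. That of TET1 was lost in 4, and its other probes read -0.007 and 0.13. The calls of ATF3 and ZFP36 were each lost in 2. Median scaling ended those of MAPKAPK3 (adjusted p = 0.27), ERCC1 (0.12) and TDG (0.067), and MAPKAPK3 was also lost without 30 min replicate 2. FOXO1 was lost without 30 min replicate 1 (0.054) and ING1 without either 30 min array (highest 0.064). TAF12 was lost in 4 of 11 settings (highest 0.25).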

How the results depend on the processing

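Of 93 values of the GADD45 differences under other settings, 79 stayed within the spread between replicates and 14 moved further. Neither the replicate block nor dropping the filter could change a difference, since each group held both replicate numbers and filtering followed normalization. Leaving out an array outside a comparison could hardly change it either. The 79 thus overstate how stable the values are. The sign turned in 5, all of GADD45A, whose differences lay near 0: without control replicate 1 it was -0.04 at 30 min and -0.06 at 60 min, without 60 min replicate 1 it was -0.01 at 60 min, without 60 min replicate 2 it was 0.01 from 30 to 60 min, and the last came with median scaling. Without background correction GADD45G was 0.91 at 30 min and 0.60 at 60 min, and GADD45B 0.81 at 30 min and -0.88 from 30 to 60 min. With median scaling GADD45B was -0.18 at 60 min and -1.12 from 30 to 60 min, and GADD45A was -0.090 at 60 min, in place of 0.014, and -0.13 from 30 to 60 min; the cause was not tested. The other GADD45A probe gave 0.20 at 30 min and -0.16 from 30 to 60 min. Over the omission of single arrays GADD45G ranged from 1.14 to 1.42 at 30 min and from 0.74 to 1.02 at 60 min, its ends set by the control left out. Genes of the 5 lists past the threshold then ranged from 0 to 1 at 30 min, from 16 to 34 at 60 min and from 17 to 27 between the times, and all genes from 11 to 167, from 1229 to 2756 and from 1325 to 2560. Without control replicate 1 or 2 all genes numbered 11 and 15 at 30 min and 1358 and 1229 at 60 min, and without 30 min replicate 1 they numbered 27 at 30 min; without 60 min replicate 1 or 2 they numbered 167 and 162 at 30 min, and without 30 min replicate 1 or 2 they numbered 1461 and 1325 between the times. With median scaling all genes were 84 at 30 min (27 higher, 57 lower), 1654 at 60 min (404 higher, 1250 lower, against 1323 and 1548) and 1664 between the times (443 higher, 1221 lower, against 1368 and 1474). Another probe turned MAPK8 to 0.13 between the times and ATF4 to 0.73 at 60 min. No label says that same-numbered samples share a culture, and their deviations correlated at 0.04, 0.08 and -0.06 across genes. Adding replicate number as a block gave calls numbering 35 in place of 41 at 30 min. The GADD45 differences could not change with that block, because every group held both replicate numbers, and only their SE could. Of the 3 genes, GADD45G moved most with the background correction.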

Other observations

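Genes that rose at 30 min as GADD45B did were picked after their values were seen and are given with no test. A mean at least 1.5-fold above control at 30 min was found for 43 of the 12547 genes. In all 43 both 30 min arrays lay above both controls, as in 21.4% of all genes tested. The choice on a high 30 min mean all but fixed that count, so nothing is read from it. Choosing genes on a high 30 min mean itself favours lower values at 60 min, so nothing is read from the counts that follow. In 19 of the 43 both 60 min arrays were below both 30 min arrays, as in 31.2% of all genes tested. The 19 included GADD45B and GADD45G, along with FOXP1, a forkhead repressor, and PRKAA2, a catalytic subunit of AMP-activated kinase. The kinase MAP3K12, upstream of JNK, and the TNF receptor family member RELT were also among them. In 11 the 60 min arrays were all above the 30 min arrays, as in 29.1% of all genes tested. Among these 11 were ANKRD37, a hypoxia-responsive gene, RASD1, RN7SK and the U3 genes SNORD3A, SNORD3C and SNORD3D. In 6 both 60 min arrays were at or below the higher control: ACTA1, FOXP1, GADD45B, GOLGA7B, KLC4 and SDR16C5, of which SDR16C5 was above background in 1 of the 3 groups.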
